A study of Mus musculus with 2 samples.

Results

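The let-7 and miR-98 guide strands were measured in exosomes released by LLC cells, a mouse Lewis lung carcinoma cell line. They were taken as the 9 mature miRNAs mmu-let-7a-5p, mmu-let-7b-5p, mmu-let-7c-5p, mmu-let-7d-5p, mmu-let-7e-5p, mmu-let-7f-5p, mmu-let-7g-5p, mmu-let-7i-5p and mmu-miR-98-5p (the prefix is dropped below), out of 1881 mouse miRNAs on the array. The choice was made by name and not by signal, although earlier results of these data were known. LLC cells were cultured without any further treatment, changed to exosome-free serum, and the exosomes were collected from the supernatant by ultracentrifugation. RNA from 2 independent experiments was labelled with Cy3 and hybridized to 2 Agilent mouse miRNA microarrays on the same slide, called replicate 1 and replicate 2. Both arrays carried LLC-derived exosomes, so there was 1 group, no control sample and no test between groups.

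The let-7 miRNAs are among the most conserved small RNAs of animals. Their precursors are cut by Drosha and Dicer, the guide strand is loaded into an Argonaute protein, and the seed near its 5′ end pairs with messenger RNAs such as those of the Ras and Hmga2 genes and lowers their output. The RNA-binding proteins Lin28a and Lin28b block the maturation of let-7 precursors in stem cells and in many tumours, and let-7 miRNAs are known as repressors of growth in lung cancer cells. The partner strand of each hairpin is usually degraded.

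The guide strands are printed here because the whole family differs by few bases, which is what the probes of an array have to tell apart. All 9 members were matched by name to mature sequences of RefSeq on the mouse assembly GRCm38.p6, and each was 22 bases long. Capitals mark the seed, bases 2 to 8 counted from 1 at the 5′ end, and the seed was GAGGUAG in all 9.
let-7a-5p: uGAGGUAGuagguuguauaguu
let-7b-5p: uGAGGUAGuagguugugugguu
let-7c-5p: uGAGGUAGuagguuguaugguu
let-7d-5p: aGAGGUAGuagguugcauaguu
let-7e-5p: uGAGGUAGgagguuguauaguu
let-7f-5p: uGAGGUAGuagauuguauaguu
let-7g-5p: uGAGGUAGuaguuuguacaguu
let-7i-5p: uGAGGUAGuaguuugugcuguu
miR-98-5p: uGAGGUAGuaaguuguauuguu

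Relative to let-7a-5p, let-7c-5p differed by A19G alone, let-7e-5p by U9G alone and let-7f-5p by G12A alone. let-7b-5p differed by A17G and A19G, let-7d-5p by U1A and U16C, let-7g-5p by G12U and U18C, and miR-98-5p by G11A and A19U. let-7i-5p stood farthest from let-7a-5p, with G12U, A17G, U18C and A19U. Between any pair of members the number of differing bases ran from 1 to 6, the 6 being between let-7d-5p and let-7i-5p, and 0 of them lay in the seed. The probe sequences were not analysed here, so how far 1 guide strand bound to the probes of another was not tested.

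**Figure D1:**
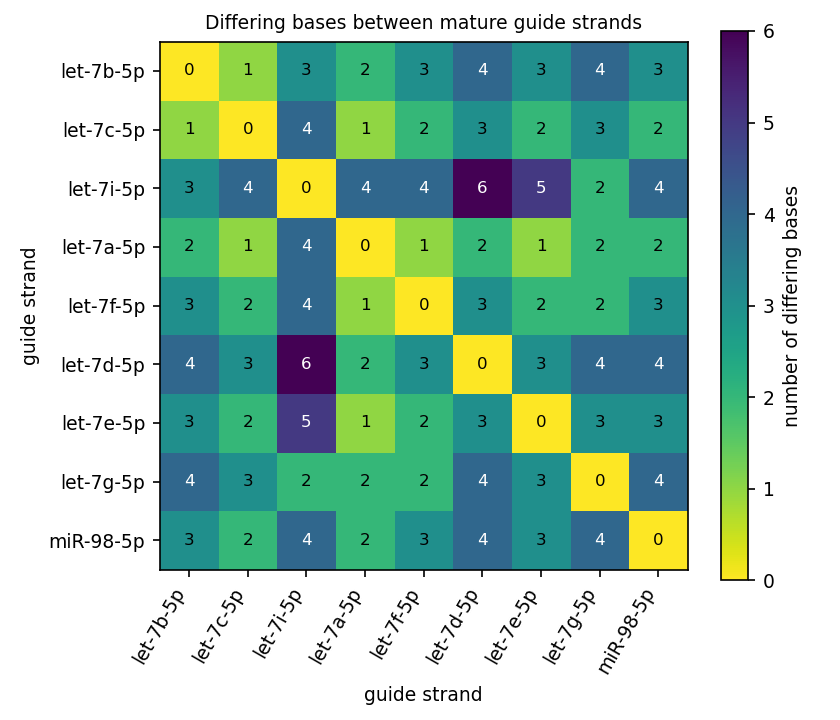
Number of differing bases between each pair of the 9 mature guide strands (rows and columns), from 0 on the diagonal to 6 for let-7d-5p with let-7i-5p. let-7a-5p is 1 base away from let-7c-5p, let-7e-5p and let-7f-5p.

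The 9 guide strands came from 11 loci in the reference table. On chromosome 13, on the minus strand, the mature sequences of let-7a-5p (Mirlet7a-1, chr13:48538239-48538260), let-7f-5p (Mirlet7f-1, chr13:48537889-48537910) and let-7d-5p (Mirlet7d, chr13:48536078-48536099) lay together, with 328 bases between the first pair and 1789 bases between the second. On chromosome 15, on the plus strand, let-7c-5p (Mirlet7c-2, chr15:85706616-85706637) and let-7b-5p (Mirlet7b, chr15:85707325-85707346) lay 687 bases apart, both within the bounds of the long noncoding RNA gene Lncppara. On chromosome X, let-7f-5p (Mirlet7f-2, chrX:151912353-151912374) and miR-98-5p (Mir98, chrX:151913229-151913250) lay 854 bases apart within the bounds of Huwe1, which encodes a ubiquitin ligase. The others stood alone among the members. They were let-7c-5p again (Mirlet7c-1, chr16:77599672-77599693), let-7e-5p within the bounds of Spaca6 (Mirlet7e, chr17:17830366-17830387), let-7g-5p within the bounds of Wdr82 (Mirlet7g, chr9:106178846-106178867) and let-7i-5p in no other listed gene (Mirlet7i, chr10:122985698-122985719). The table gives gene bounds only, so exon and intron were not resolved. It also holds no guide strand entry for Mirlet7a-2, whose partner strand let-7a-2-3p was on the array, so the loci of let-7a-5p given here may not be complete. A guide strand made at more than 1 locus, such as let-7c-5p or let-7f-5p, gives a single signal on the array.

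Of the 9 guide strands, 7 were detected on both arrays. The miRNA detection call of the scanner software was used, in which at least 1 probe has a total signal above 3 times its error, and it called 216 of the 1881 miRNAs on both arrays, or 11.5%. let-7a-5p, let-7b-5p, let-7c-5p, let-7d-5p, let-7e-5p, let-7f-5p and let-7i-5p were detected, and let-7g-5p and miR-98-5p were detected on neither array. Each member had 2 probes with 15 spots each. Of the 18 member probes, 11 were detected on both arrays and 7 on neither, against 8.9% of all 4415 probes detected on both. The arrays themselves were dim, with 253 miRNAs (13.5%) detected in replicate 1 and 223 (11.9%) in replicate 2, 7.53% and 6.13% of spots well above background, 0 saturated spots, and a brightest negative control spot of 9.45 and 9.35 intensity units.

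let-7b-5p gave the brightest probe of the family. Its brighter probe had a mean intensity of 134 ± 10.3 (SD over 15 spots) in replicate 1 and 83.5 ± 6.75 in replicate 2, in background-subtracted units. Its other probe had 58.6 ± 3.52 and 37.6 ± 4.20. For both probes the spots of replicate 1 all lay above those of replicate 2. On the brighter probe they ran from 113 to 152 against 76.2 to 98.1. Spots of 1 probe on 1 array share their RNA, so this spread covers the measurement on the slide and not the experiment.

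let-7c-5p, which differs from let-7b-5p by 1 base, behaved in the same way on its brighter probe. That probe had a mean of 114 ± 6.44 in replicate 1 and 81.1 ± 5.49 in replicate 2. Its spot ranges of 105 to 126 and 73.2 to 94.1 did not overlap. Its dimmer probe gave 20.2 ± 3.66 and 14.8 ± 3.61, with overlapping ranges, and 14 of 15 and 7 of 15 of its spots were well above background.

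let-7i-5p and let-7a-5p were also detected through both probes, at lower intensity than the brighter probes of let-7b-5p and let-7c-5p. The probes of let-7i-5p gave 19.0 ± 3.15 and 26.5 ± 4.68 on the array of replicate 1 and 16.9 ± 3.16 and 23.9 ± 4.25 on that of replicate 2. The brighter probe of let-7a-5p gave 34.6 ± 3.40 and 38.8 ± 3.64. Its dimmer probe, at 9.50 ± 3.53 and 11.1 ± 2.39, was the detected member probe nearest to the limit, with a total signal of 3.01 and 3.40 times its error, and 1 and 0 of its 15 spots were well above background.

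let-7f-5p, let-7d-5p and let-7e-5p were each detected through a single probe, and the other probe of each was undetected on both arrays. The detected probe of let-7f-5p gave 18.0 ± 3.61 in replicate 1 and 24.7 ± 2.27 in replicate 2. That of let-7d-5p gave 15.2 ± 3.51 and 21.4 ± 3.72, and that of let-7e-5p gave 11.9 ± 2.30 and 16.7 ± 4.08. A stricter call, which required 50% or more of a probe's spots well above background on each array, kept 6 members and lost let-7e-5p (2 and 8 of 15 spots), against 7.07% of all miRNAs called. All 3 were higher in replicate 2, with spot ranges that overlapped between the arrays. Their undetected probes had means between 1.48 and 4.97, where the negative control spots had a mean of 0.57 ± 2.48 and 0.76 ± 2.72 on the arrays of replicates 1 and 2.

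let-7g-5p missed the detection limit by little and miR-98-5p by much. The brighter probe of let-7g-5p had a mean of 6.67 ± 2.34 in replicate 1 and 8.15 ± 2.56 in replicate 2, which was 2.17 and 2.57 times its error where 3 was required. Of its 15 spots, 15 and 14 were called positive and significant and 0 were well above background, and its other probe stood at 1.36 and 1.42. A looser call, which required 50% or more of a probe's spots positive and significant on each array, added let-7g-5p and gave 8 members, against 25.4% of all miRNAs called. Of the miR-98-5p probes, 1 was at 2.42 and 1.29 and the other below 0, at -0.956 and -1.63, and no total exceeded 0.803 times its error. Neither miRNA was detectable at this signal, which does not show that it was absent from the exosomes.

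**Figure D2:**
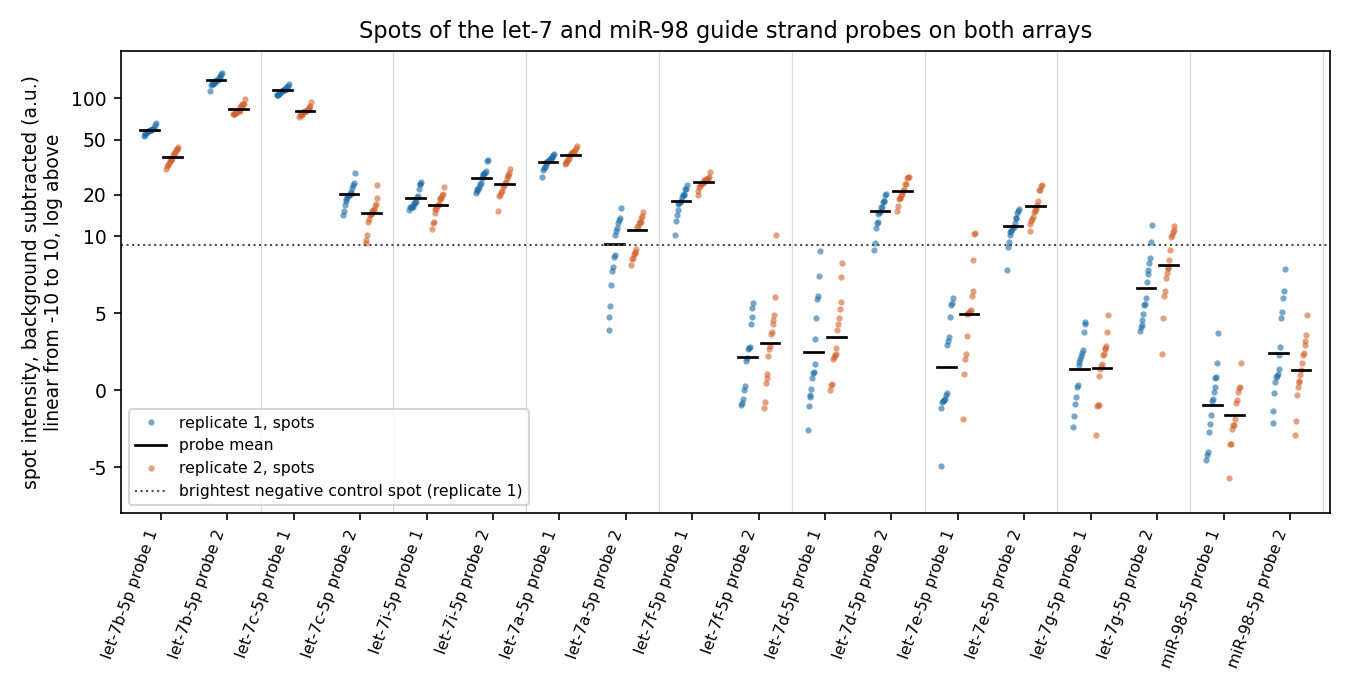
Background-subtracted intensity of each spot (points, up to 15 a probe) of the 18 member probes on both arrays, with the probe mean as a bar; the axis is linear from -10 to 10 and logarithmic above. The brighter probes of let-7b-5p and let-7c-5p stand highest on both arrays, at 134 and 114 in replicate 1 and 83.5 and 81.1 in replicate 2, and both miR-98-5p probes lie below the dotted line at the brightest negative control spot of replicate 1, 9.45.

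The probes of each detected guide strand kept their order between arrays. The same probe was the brighter on both arrays for 9 of 9 members, a count not set beside that of other miRNAs. For let-7g-5p and miR-98-5p neither probe was detected, so their order is not read. For let-7d-5p, let-7e-5p and let-7f-5p only the brighter probe was detected. The ratio of brighter to dimmer was much the same on both arrays for let-7b-5p, let-7c-5p and let-7i-5p. It was 2.29 and 2.22 for let-7b-5p, 5.63 and 5.48 for let-7c-5p and 1.39 and 1.41 for let-7i-5p, in replicates 1 and 2. For let-7a-5p no exact ratio can be given, since its dimmer probe was detected but not well above background, with means of 9.50 and 11.1 beside brightest negative control spots of 9.45 and 9.35. The spots of the 2 probes overlapped on both arrays for let-7g-5p, let-7i-5p and miR-98-5p and on neither array for the other 6 members. Among the 186 miRNAs detected on both arrays that had 2 probes, 124, or 66.7%, had both probes detected on both arrays, against 4 of the 7 detected members, and the median ratio over those 124 was 1.23. Averaged over the arrays, let-7c-5p had a ratio of 5.55, which 3 miRNAs exceeded, let-7b-5p 2.25, which 20 exceeded, and let-7i-5p 1.40, which 39 exceeded. The mean gap between the 2 probe levels of a detected member had a median of 2.50 on the log2 scale, which included the undetected probes of let-7d-5p, let-7e-5p and let-7f-5p. A level is therefore tied to the probe it was read from, and an order of levels between members is an order of signal and not of amount.

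To set the arrays on 1 scale, every spot signal was put relative to the 75th percentile of the 393 probes that both arrays detected, which was 50.2 units for replicate 1 and 40.0 for replicate 2, on a log2 scale. A level of 0 is thus a signal at that percentile. Over the probes detected on both arrays, let-7b-5p had a level of 0.82 in replicate 1 and 0.48 in replicate 2 (0.65 ± 0.24, mean ± SD, n = 2), rank 32 among the 216 miRNAs detected on both arrays. let-7c-5p had -0.08 and -0.23 (-0.15 ± 0.10, rank 54).

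The other 5 lay close together near the median of -1.26 over the 216 miRNAs. let-7i-5p had -1.18 and -1.02 (-1.10 ± 0.12, rank 91) and let-7f-5p -1.51 and -0.70 (-1.10 ± 0.57, rank 93). let-7a-5p had -1.52 and -0.97 (-1.25 ± 0.39, rank 107). let-7d-5p had -1.76 and -0.92 (-1.34 ± 0.60, rank 117) and let-7e-5p -2.10 and -1.30 (-1.70 ± 0.57, rank 151). The median over the 7 members was -1.10, and 5 of 7 lay above the median of all.

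In that order let-7b-5p stood above let-7c-5p by 0.80 (0.90 and 0.71 in replicates 1 and 2), beyond their pooled SD of 0.18. That call was lost with the brightest probe of each alone, where the levels were 1.24 ± 0.25 and 1.10 ± 0.11 and the gap of 0.14 (0.24 and 0.04) lay within a pooled SD of 0.20. let-7c-5p stood above let-7i-5p by 0.94 (1.10 and 0.79), beyond 0.11. With the brightest probes let-7c-5p was still the higher, 1.10 ± 0.11 against -0.85 ± 0.13, and let-7a-5p moved up between them at -0.30 ± 0.35. In the order over all detected probes the remaining neighbours, from let-7i-5p down to let-7e-5p, differed by 0.01 to 0.35 and in no case by more than their pooled SD of 0.41 to 0.58. The order of let-7i-5p and let-7f-5p turned between the arrays, and so did that of let-7a-5p and let-7d-5p. let-7f-5p stayed above let-7a-5p, by 0.02 and 0.27 in replicates 1 and 2, and let-7d-5p above let-7e-5p, by 0.33 and 0.38. The pooled SD also takes in a shift between arrays that both members of a pair share, so it can exceed a gap that was alike on both.

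**Figure D3:**
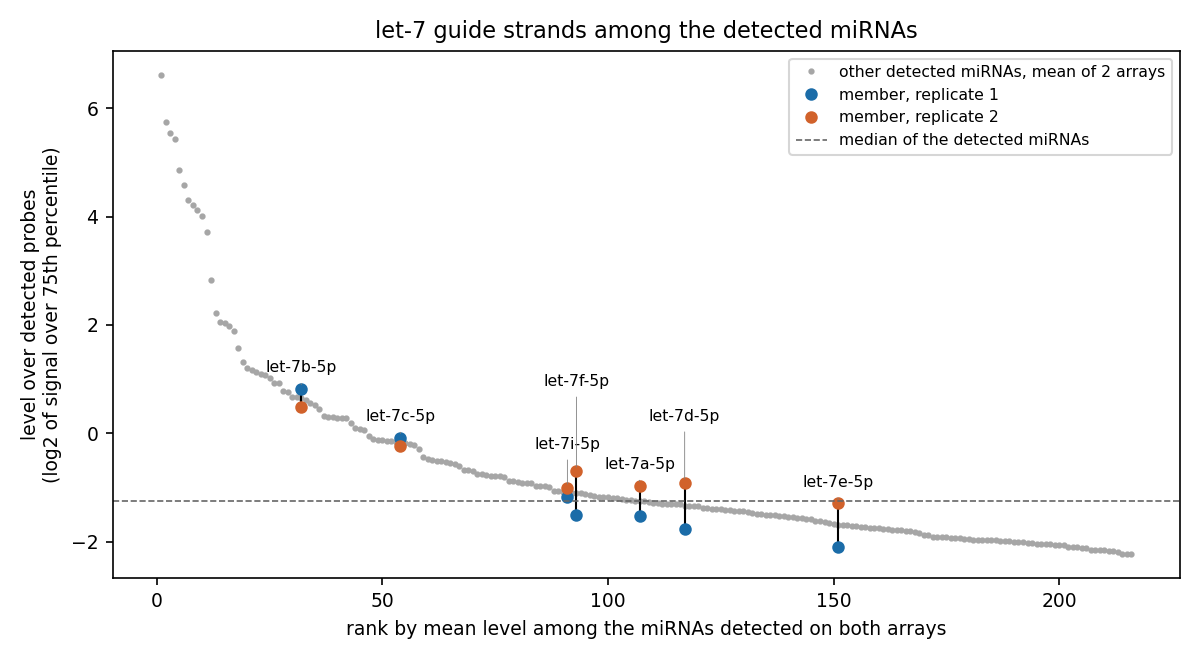
Level over the detected probes (log2 of signal over the 75th percentile of the array) against rank for the 216 miRNAs detected on both arrays; grey points are means of 2 arrays and coloured points are the 7 detected members on each array. let-7b-5p (rank 32) and let-7c-5p (rank 54) lie above the other 5, which lie near the dashed median of -1.26.

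When both probes of every miRNA were averaged, detected or not, the 3 members with an undetected probe fell far down, since the average then took in a probe near background. let-7d-5p then had -5.15 in replicate 1 and -2.62 in replicate 2 (-3.89 ± 1.79, rank 202), let-7e-5p -7.12 and -2.74 (-4.93 ± 3.10, rank 208) and let-7f-5p -4.76 and -3.31 (-4.03 ± 1.03, rank 203). Spots with no positive signal were given the smallest positive signal of their array, and the undetected probes of let-7d-5p, let-7e-5p and let-7f-5p had 4, 8 and 3 such spots in replicate 1 and 0, 1 and 2 in replicate 2. The members still ranked 190, 192 and 197 in replicate 2, and 198, 202 and 196 when the log2 of the mean of a probe's spots was used, so the low ranks did not rest on those spots alone. The 4 members with both probes detected kept their levels, at ranks 32, 51, 76 and 87 for let-7b-5p, let-7c-5p, let-7i-5p and let-7a-5p, and they were the 4 of 7 members above the median of -1.46. The median over the 7 members was -1.25. In this ranking let-7b-5p stood between miR-6984-5p (0.67 ± 0.03) and miR-3473b (0.61 ± 0.20), the miRNA that the study followed up, and the SD of let-7b-5p covered both gaps. let-7e-5p stood between miR-19b-3p (-4.90 ± 0.79), of the oncogenic miR-17-92 cluster, and miR-3547-5p (-5.96 ± 2.82).

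The guide strands did not move together between the experiments. As deposited, the mean of replicate 2 over that of replicate 1 was 0.622 and 0.642 on the let-7b-5p probes and 0.714 and 0.734 on the let-7c-5p probes. It was 0.889 and 0.902 on the let-7i-5p probes and 1.12 and 1.16 on the let-7a-5p probes, the latter from the probe not well above background. It was 1.37, 1.40 and 1.41 on the single detected probes of let-7f-5p, let-7e-5p and let-7d-5p. Of these, the let-7e-5p probe was close to the detection limit in replicate 1. Thus 6 of the 11 detected member probes were lower in replicate 2 and 5 were higher. The 2 probes of let-7b-5p, let-7c-5p, let-7i-5p and let-7a-5p, the members with both detected, moved the same way and by nearly the same factor. How often this held for other miRNAs was not counted. Over all 393 detected probes, 61.3% were lower and 38.7% higher in replicate 2, with a median ratio of 0.953.

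The members stood on both sides of that median. The detected probes of let-7d-5p, let-7e-5p and let-7f-5p lay above 95.7%, 95.2% and 94.7% of all detected probes in this ratio, and the let-7b-5p probes above 15.0% and 13.7%. Spots did not overlap between the arrays for 3 of the 11 member probes, both of let-7b-5p and the brighter of let-7c-5p, against 18.8% of the 393. On the scaled levels, where 71.8% of the 216 miRNAs were higher in replicate 2 and the median difference was 0.26, replicate 2 minus replicate 1 was 0.84 for let-7d-5p, 0.81 for let-7f-5p, 0.80 for let-7e-5p, 0.56 for let-7a-5p, 0.16 for let-7i-5p, -0.15 for let-7c-5p and -0.34 for let-7b-5p. Their median was 0.56, and the range from the 5th to the 95th percentile of all 216 was -0.90 to 0.80. With 1 array for each experiment this is a single difference for each member, and it was not tested.

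Set beside the sequences printed above, the members with A19G relative to let-7a-5p, let-7b-5p and let-7c-5p, were the lowest in this ratio. Those that share base 19 with let-7a-5p and were detected, let-7d-5p, let-7e-5p and let-7f-5p, were the highest. let-7i-5p, with A19U, lay between let-7c-5p and let-7a-5p. let-7k, a let-7 miRNA outside the members, also carries A19G, and its probe detected on both arrays had a ratio of 0.98, above the let-7i-5p probes. That probe was near the limit, at 3.67 and 3.55 times its error. The other let-7k probe fell from a mean of 10.8 to 8.12 and was undetected in replicate 2. let-7j, also outside the members, carries A19U, and its probes had ratios of 0.951 and 0.872. let-7b-5p and let-7c-5p were also the members with the brightest probes. This grouping by base 19 was noticed after the values were seen, and no test was made of it.

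**Figure D4:**
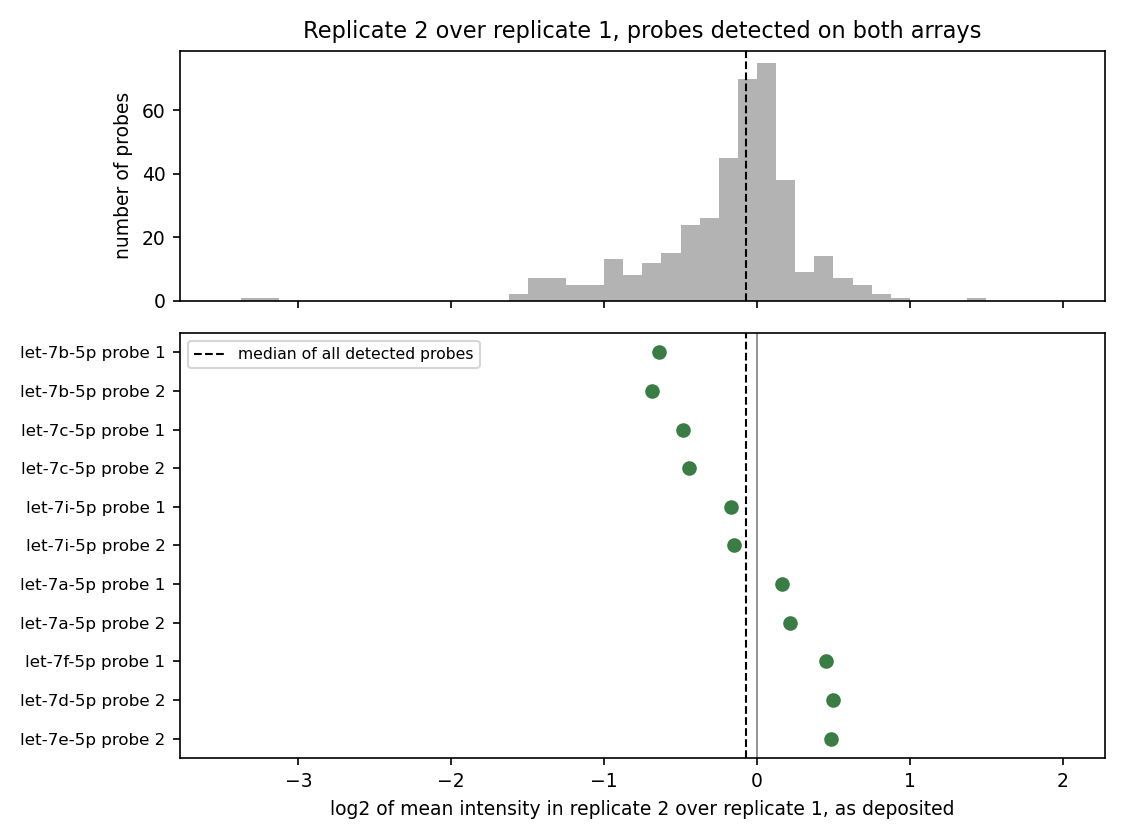
Upper panel, histogram of the log2 ratio of mean intensity in replicate 2 over replicate 1 for the 393 probes detected on both arrays; lower panel, the same ratio for the 11 detected member probes. The let-7b-5p and let-7c-5p probes lie left of the dashed median (ratio 0.953) and the let-7a-5p, let-7d-5p, let-7e-5p and let-7f-5p probes right of it.

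The scanner software also gives a total signal for each probe and miRNA, on a smaller scale than the spot intensity. The totals of the detected probes of each member, summed here, were 40.9 in replicate 1 and 25.7 in replicate 2 for let-7b-5p and 28.4 and 20.3 for let-7c-5p. They were 9.65 and 8.65 for let-7i-5p and 9.35 and 10.6 for let-7a-5p. They were 3.83 and 5.24 for let-7f-5p, 3.22 and 4.54 for let-7d-5p and 2.53 and 3.54 for let-7e-5p. The family sum was 97.8 and 78.6, or 0.841% and 0.758% of the summed totals of all detected miRNAs (11630 and 10360), and let-7b-5p with let-7c-5p held 70.8% and 58.6% of it.

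For let-7d-5p and let-7e-5p, the miRNA total in the deposited files was far above the sum of their own probes. It was 31.6 and 24.9 for let-7d-5p, 9.81 and 5.48 times its own sum, and 34.1 and 28.4 for let-7e-5p, 13.5 and 8.02 times. The excess for let-7d-5p, 28.4 and 20.3, equalled the total of let-7c-5p, which comes just before it when the detected miRNAs are sorted by name, and the excess for let-7e-5p, 31.6 and 24.9, equalled the file's total of let-7d-5p. The same held for let-7k in replicate 2, where the total of 7.42 exceeded its own 2.46 by the 4.96 of let-7j. In each of these cases the first probe of the miRNA was undetected on that array, and the other detected members, whose first probe was detected, had an excess of 0. By the file's totals let-7d-5p and let-7e-5p would stand above let-7c-5p on both arrays, and in replicate 2 let-7e-5p (28.4) would stand above let-7b-5p (25.7) too. These totals were used only as an alternative.

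**Figure D5:**
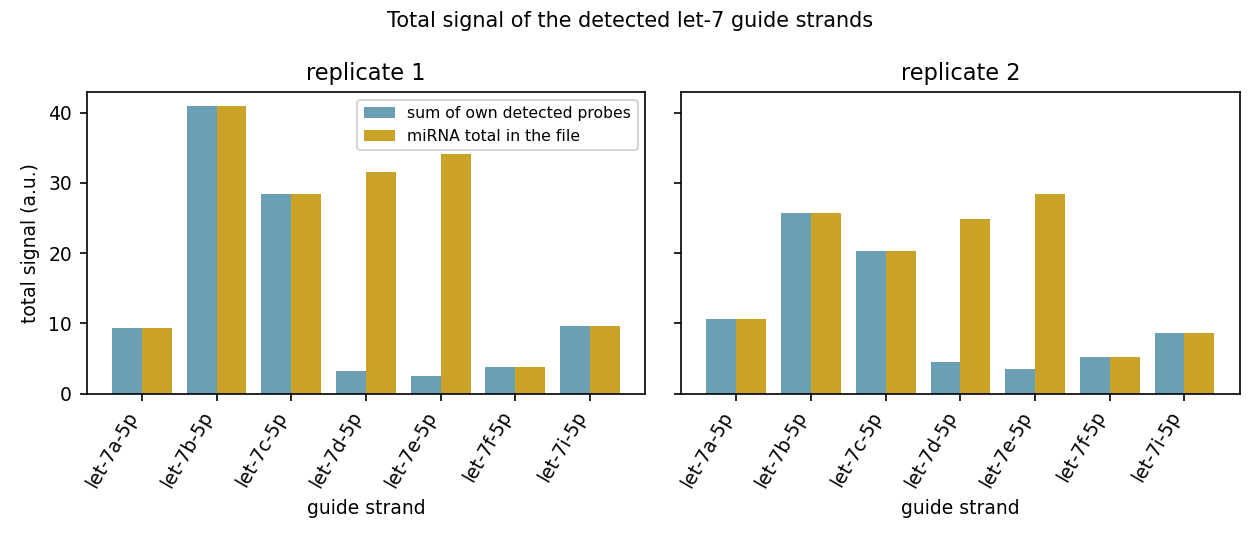
Total signal (arbitrary units, axes from 0) of the 7 detected members on each array, as the sum of a member's own detected probes and as the miRNA total in the deposited file. The bars are equal for 5 members, whereas the file's totals of let-7d-5p (31.6 and 24.9) and let-7e-5p (34.1 and 28.4) stand far above their own sums.

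Of the partner strands cut from the same hairpins, 11 were on the array and 2 were detected on both arrays, where 11.5% of all miRNAs were. Nothing is read from so small a count. let-7b-3p had summed totals of 5.13 and 5.17 and a level of -1.92 ± 0.24 over its detected probes. let-7f-1-3p had 3.89 and 4.83 and a level of -2.02 ± 0.10. The totals of let-7f-5p, 3.83 and 5.24, were near those of this partner. They came from a single detected probe, and those of let-7f-1-3p were summed over several, so the totals are not alike. Over the detected probes the level of let-7f-5p was -1.10 ± 0.57, the higher of the pair. Neither totals nor levels of different probes can be read as amounts.

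Other miRNAs near the family in sequence or position were also read. let-7k, which shares the seed GAGGUAG, was detected on both arrays with summed totals of 4.81 and 2.46, and miR-1961, which shares it too, was detected on neither. let-7j (5.45 and 4.96) and miR-202-3p (5.93 and 2.30), whose seeds are GAGGUAU, were detected on both. In replicate 2 the sums of let-7k and miR-202-3p left out a probe that replicate 1 included, so their drop is not one of signal alone. The probe left out stood at 2.57 times its error for let-7k and 2.97 for miR-202-3p. Its means in replicates 1 and 2 were 10.8 and 8.12 for let-7k and 12.3 and 9.51 for miR-202-3p. Of 5 miRNAs encoded in clusters with let-7 genes, 2 were detected on both arrays, miR-125b-5p with 13.2 and 10.1 and miR-125a-5p with 3.21 and 2.59. The other 3, miR-99a-5p, miR-99b-5p and miR-100-5p, were not. Over the whole array 11.5% of miRNAs were detected on both, and nothing is read from a list this short.

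Of 3 red blood cell miRNAs, 3 white blood cell miRNAs and 1 liver miRNA, 0 were detected on either array, with highest probe means of 6.01, 8.23 and 1.90. Of the 5 miRNAs of the miR-200 family, which mark epithelial cells, 0 were detected, with a highest probe mean of 1.04. Lists this short could hold few detected miRNAs at the 11.5% seen over the whole array, so nothing is read from these counts. Of 9 miRNAs common in many cells, 3 were detected on both arrays, the growth-related miR-21a-5p with summed totals of 17.2 and 23.3, miR-92a-3p of the miR-17-92 cluster with 11.8 and 11.9, and miR-23a-3p with 3.78 and 3.39.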

How the data were processed

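Exosomal RNA of LLC cells was measured on 2 Agilent mouse miRNA microarrays, 1 dye each. The authors deposited spot intensity from Feature Extraction (10.7.1.1 in the file headers, 9.1 in the submitters' processing notes), background-subtracted and not normalized between arrays. The labels describe a blood RNA kit, globin removal and amplified cRNA, and the paper's PCR methods name a different kit. The kit behind the array RNA is not clear from these sources. The authors also deposited a log2 table, whose scale and centring are unknown.

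Control spots and outlier spots (1178 and 1134) were left out. Each array was scaled to the 75th percentile of the 393 probes that both arrays detected, signals of 0 or less took the smallest positive one as a floor, and log2 values were averaged first over the spots of a probe, then over the probes of a miRNA. The design fixed the average over both probes of a miRNA, and the average over detected probes, which was an alternative, is given first in the text because undetected probes lie near background. Levels are mean ± SD, and the number of arrays limits their precision. Probe detection required a total signal above 3 times the error.

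The members and the lists of related miRNAs were chosen with earlier results of these data known. The text names all 9 members, array miRNAs sharing their seed, let-7j and let-7k, at most 4 detected miRNAs of each list and the neighbours in rank of the highest and lowest member. miR-99a-5p, miR-99b-5p and miR-100-5p fall outside this rule and were named to complete a list. Mature sequences were found for 1608 of the 1881 miRNAs. Alternatives covered detection, scaling, background correction, the summary of spots and probes, the signal used and each replicate left out. Python 3.11.15, numpy 2.4.6, pandas 2.3.3, matplotlib 3.10.9, R 4.3.3 and limma 3.58.1 (normexp, offset 50) were used. The computation was tested on simulated data in which all probes of a miRNA had the same true signal. A miRNA with a detected and an undetected probe was therefore not covered by it.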

Additional observations from a re-analysis of the deposited data

How the results depend on the processing

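By the mean of the arrays used let-7b-5p stood first among the detected members under 15 of 15 settings and let-7c-5p second under 14, the exception being the miRNA totals of the deposited files, where let-7e-5p and let-7d-5p came before it. Some of these settings could not change the order of the detected members. The percentile over all probes and the lack of scaling shift all levels of an array alike, and the other detection calls change only which members are listed. The count of 7 members detected on both arrays was 6 when at least 50% of a probe's spots had to be well above background (let-7e-5p was lost), 8 when they had to be positive and significant (let-7g-5p was gained), and 7 to 7 without either replicate. Under the first of these calls 2 members, in place of 4, lay above the median of the called miRNAs, and under the other settings 4 to 5 did. The median member level of -1.25 became 2.97 with the percentile over all probes, -0.38 with normexp, -0.85 with the brightest probe, -0.14 with the file's miRNA totals, -0.83 with the summed own totals, 3.30 in the deposited log2 table and -2.57 with the positive and significant call, and it lay between -1.52 and -1.02 without 1 replicate. The first of these settings shifts every miRNA of an array alike. The sixth, the deposited log2 table, has a scale of its own that is unknown. The median difference between arrays of 0.56 ranged from -0.10 (the file's miRNA totals) to 0.61 (median over spots), so its sign turned with those totals, and it was 0.23 without scaling, a setting chosen after seeing the data. The median probe gap of 2.50 became 0.40 with normexp, 2.48 with the median over spots and 2.38 with the log2 of the mean of a probe's spots, also chosen after seeing the data, and it lay between 2.49 and 2.51 without 1 replicate. Ranks ran from 27 to 43 for let-7b-5p but from 49 to 241 for let-7d-5p and 44 to 245 for let-7e-5p. The ranks of 49 and 44 came only from the file's miRNA totals, which held the excess described above. The next best ranks of let-7d-5p and let-7e-5p were 117 and 151, over the detected probes. No paired comparison between groups was possible because there was 1 group. Signal over background limits let-7g-5p, miR-98-5p and the dimmer let-7a-5p probe, which give only a bound. The detected let-7e-5p probe in replicate 1 (3.69 times its error, 2 of 15 spots well above background) was close to the limit too. So was the dimmer let-7c-5p probe in replicate 2 (4.34 times its error, 7 of 15 spots). The ratios that use these probes are therefore less certain.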

Other observations

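In the deposited log2 table let-7b-5p had 5.41 in replicate 1 and 5.12 in replicate 2, let-7c-5p 4.75 and 4.62, let-7i-5p 3.23 and 3.38 and let-7a-5p 3.16 and 3.68. let-7f-5p had 1.41 and 2.59, let-7d-5p 0.45 and 2.34 and let-7e-5p 0.12 and 2.13. miR-98-5p was at the table's lowest value, -3.32, in both columns. let-7g-5p, detected on neither array, was above that value, at -2.17 and -0.98.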
